A study of Mus musculus with 16 samples.

Results

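Ileal RNA levels were examined for 10 genes that build triglyceride in the cell, act on its precursors or break it down, namely *Mogat2*, *Dgat1*, *Dgat2*, *Lpin1*, *Lpin2*, *Lpin3*, *Agpat2*, *Gpam*, *Acsl5* and *Pnpla2*. They were chosen by name, so that their members are the 49 transcripts listed under these symbols among 59258 transcripts, and 10 genes of 23299. All 10 passed the filter on low values (1 RPKM or more in 2 or more libraries), as did 19042 genes in all. RNA-seq was performed by the authors on the terminal ileum of C57BL/6 mice, comparing wild-type (WT) littermates with *Tas1r3*-/- mice, which carry a whole-body knockout (the Tas1r3tm1Csz allele) of a subunit of the sweet and umami taste receptors and were backcrossed to C57BL/6. Mice were assigned at 5 to 6 weeks of age and fed for 10 weeks either a normal diet (ND) with plain water or a Western diet (WD), which was a high-fat diet labelled 60% with 30% sucrose in the water. The question asked of these genes is whether either the diet or the loss of *Tas1r3* was accompanied by a different level of the machinery of triglyceride synthesis.

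The groups are named WT-ND, KO-ND, WT-WD and KO-WD, and the labels give each 2 males and 2 females, that is 16 columns. The female KO-ND columns equal weighted means of the male KO-ND columns in all but 17 and 18 of 59258 transcripts, none of them a transcript of these 10 genes, and were left out. The female KO-WD columns were treated as related to each other, not as 2 independent mice, and were averaged into 1 library. This leaves 13 libraries (4 WT-ND, 2 KO-ND, 4 WT-WD and 3 KO-WD), and every KO-ND library is male. The values imply 7 to 12.4 M reads a library on the transcripts with a matched length, which need not be the total that RPKM is relative to. *Tas1r3* itself was at an RPKM (reads per kilobase of transcript, relative to depth) of 1.80 to 6.27 in the WT libraries and at most 0.00452 in the *Tas1r3*-/- libraries. Its transcript is among those with a value of more than 6 significant digits, which 169 of 770354 values have. No value of the 10 genes has more than 6 digits.

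Dietary triglyceride is cut in the gut lumen to fatty acids and monoacylglycerol, which enterocytes take up and join again before the fat leaves the cell in chylomicrons. The main intestinal route adds acyl-CoA to monoacylglycerol and then to diacylglycerol, whereas the glycerol phosphate route builds diacylglycerol from glycerol 3-phosphate through lysophosphatidic and phosphatidic acid. Lipins are the phosphatases of the latter route that turn phosphatidic acid into diacylglycerol, and lipin 1 is also known as a nuclear coregulator of fatty acid oxidation genes.

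Levels of different genes can be compared in RPKM, which is per length. In the WT-ND libraries the highest mean was that of *Dgat1*, which encodes an enzyme of the final acylation step to triglyceride, at an RPKM of 303 ± 50.2 (SD, n = 4). *Agpat2*, whose product acylates lysophosphatidic acid, followed at 247 ± 42.6, and *Mogat2*, the intestinal monoacylglycerol acyltransferase, at 141 ± 32.7. The next were *Acsl5*, a long-chain acyl-CoA synthetase (120.1 ± 21.5), *Pnpla2*, the adipose triglyceride lipase (109.5 ± 24.8), and *Dgat2*, an enzyme of the final step that is unrelated in sequence to *Dgat1* (105.6 ± 36.3). *Lpin2* and *Lpin3* stood at 34.7 ± 11.8 and 30.2 ± 3.01, and *Gpam*, a mitochondrial glycerol 3-phosphate acyltransferase, and *Lpin1* were lowest at 4.55 ± 1.73 and 3.84 ± 1.19. Against the 19042 genes tested, *Dgat1* was at the 98.1 percentile and *Lpin1* at the 34 percentile of mean WT-ND level. Ranges of neighbours in this order overlapped except between *Dgat2* and *Lpin2* and between *Lpin3* and *Gpam*, so that in these sums over all transcripts the genes formed 3 tiers of 6, 2 and 2 genes.

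The order depends on which transcripts are summed. In GENCODE M21, which is on the same build (GRCm38) and matched 98.2% of all transcript names, 1 of the 10 *Dgat1* transcripts is annotated as protein coding. That transcript, Dgat1-201, held a median of 12.2% of the summed *Dgat1* RPKM over the 13 libraries (range 8.27% to 20.2%), whereas Dgat1-205 and Dgat1-208, which are annotated as retained introns, held 38.7% and 29.4%. These are short, at 885 and 564 bases against 1888 for Dgat1-201, and a read on a short transcript adds more RPKM. The protein-coding share was likewise low for *Agpat2* (median 15.8%) and *Pnpla2* (37.4%), and it was 100% for *Mogat2* and *Gpam*, which have 1 transcript each in the table. Counted over protein-coding transcripts alone, the WT-ND mean was highest for *Mogat2* (141 ± 32.7, n = 4) and then *Acsl5* (101.8 ± 15.1), *Dgat2* (72.8 ± 24.2) and *Agpat2* (67.2 ± 29.7), and *Dgat1* came next at 41.8 ± 21.0. *Pnpla2* (39.9 ± 18.3), *Lpin3* (23.2 ± 2.63), *Lpin2* (19.3 ± 5.41), *Gpam* and *Lpin1* (1.89 ± 0.622) followed. On this count the WT-ND ranges of *Pnpla2* (19.4 to 61.7) and *Dgat1* (25.05 to 72.1) overlapped that of *Lpin3* (20.2 to 26.6), so the upper tiers were no longer apart. For *Lpin1*, 2 of its 4 transcripts had no matching name and were left out of this sum, so its value may be too low.

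**Figure D1:**
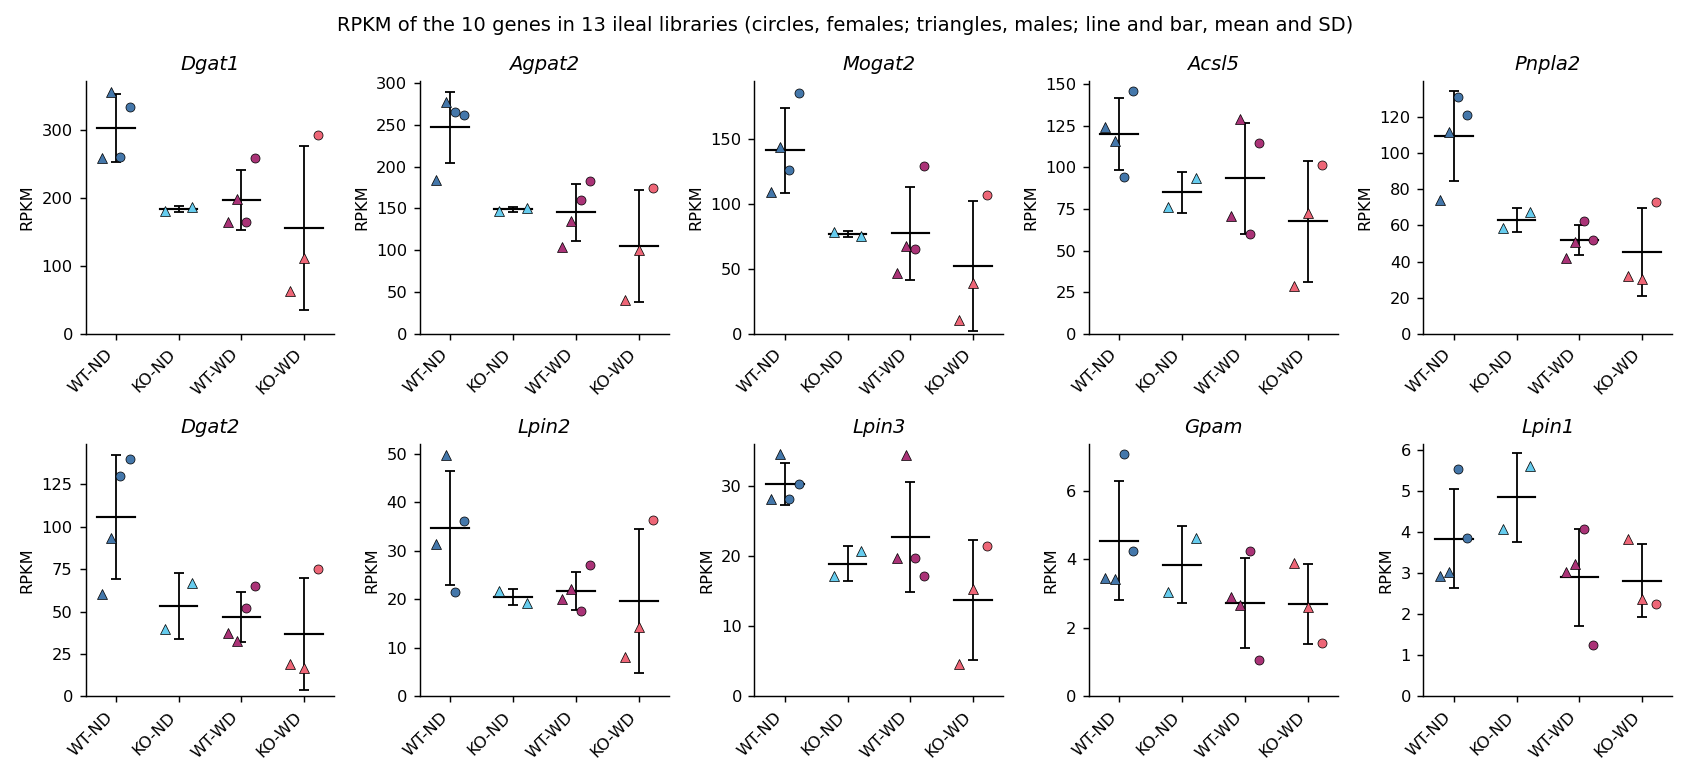
Summed RPKM (y axes, from 0) of the 10 genes by group (x axes), with 1 point per library (circles, females; triangles, males) and the mean and SD as line and bar (n = 4, 2, 4 and 3). The SD was largest in KO-WD for 6 genes, among them *Mogat2* (10.3 to 107), with the female library of KO-WD on top for 8 genes and lowest for *Gpam* and *Lpin1*.

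In the monoacylglycerol route, *Mogat2* (chr7:99219084-99238619 on GRCm38, minus strand) had an RPKM of 109, 144, 126 and 185 in WT-ND males 1 and 2 and females 1 and 2. It was 78.3 and 74.8 in the KO-ND males, 46.6, 67.6, 65.4 and 129 in the WT-WD libraries in the same order, and 10.3, 38.9 and 107 in KO-WD male 1, male 2 and the female library. KO-WD male 1 was the lowest of the 13 libraries, and in these deposited values WT-WD female 2 was the one library outside WT-ND that reached the WT-ND range. After the scaling described below, the KO-WD female library (7.09 on the log2 scale) was inside the WT-ND range (6.54 to 7.20). WT-WD female 2 (7.55) was then above it. *Dgat1* (chr15:76502015-76511953) was at 259, 356, 261 and 335 in WT-ND, 180.5 and 187 in KO-ND, 165, 199, 165 and 258 in WT-WD, and 63.8, 112 and 293 in KO-WD. In these deposited values KO-WD thus spanned from below every other library to inside the WT-ND range. *Dgat2* (chr7:99153658-99182719), which lies 36364 bases from *Mogat2* on the same strand, was at 60.0, 93.1, 129.5 and 139.6 in WT-ND, 39.6 and 67.0 in KO-ND, 37.4, 32.6, 52.0 and 65.2 in WT-WD, and 18.9, 16.9 and 75.05 in KO-WD. For *Dgat2*, the females stood above the males in each of the 3 groups that have both.

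Among the genes of the glycerol phosphate route, *Agpat2* (chr2:26593057-26604417) was at 184, 278, 265 and 262 in WT-ND, 146 and 151 in KO-ND, 104, 134.5, 160.3 and 183 in WT-WD, and 40.7, 100.3 and 174 in KO-WD. Mutations of this gene cause a congenital lipodystrophy in humans. *Gpam* (chr19:55067268-55127238) was at 3.45, 3.42, 7.08 and 4.25 in WT-ND, 3.04 and 4.64 in KO-ND, 2.91, 2.67, 4.26 and 1.07 in WT-WD, and 3.90, 2.60 and 1.57 in KO-WD. The 2 genes did not order the libraries alike, since *Gpam* was lowest in WT-WD female 2, where *Agpat2* was at its WT-WD maximum.

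*Acsl5*, which loads long-chain fatty acids with coenzyme A, lies at chr19:55251938-55297720. It was at 124, 116, 94.1 and 146 in WT-ND, 76.4 and 93.9 in KO-ND, 70.8, 129, 59.8 and 114.5 in WT-WD, and 29.0, 72.8 and 101.3 in KO-WD. *Pnpla2* (chr7:141455198-141460743), which opens the breakdown of stored triglyceride, was at 74.2, 112, 131 and 121 in WT-ND, 58.5 and 67.7 in KO-ND, 42.2, 50.8, 62.4 and 52.2 in WT-WD, and 31.9, 30.2 and 73.3 in KO-WD. In deposited RPKM, no WT-WD library reached the lowest WT-ND library for *Pnpla2*. The groups are not on 1 scale in these values, however, because the RPKM of all transcripts summed to 817011 to 819916 in the ND-fed libraries and to 542371 to 672933 in the WD-fed ones, and the comparisons below use libraries scaled to each other.

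Of the lipins, *Lpin2* and *Lpin3*, which encode phosphatidate phosphatases related to lipin 1, made up most of the summed RPKM in every library. *Lpin2* (chr17:71182560-71249817) was at 31.3, 49.9, 21.5 and 36.1 in WT-ND, 21.8 and 19.3 in KO-ND, 20.1, 22.2, 17.7 and 27.0 in WT-WD, and 8.18, 14.2 and 36.4 in KO-WD. *Lpin3* (chr2:160880670-160906002) was at 28.2, 34.5, 28.1 and 30.2 in WT-ND, 17.1 and 20.7 in KO-ND, 19.7, 34.4, 19.8 and 17.1 in WT-WD, and 4.57, 15.3 and 21.5 in KO-WD. *Lpin1* (chr12:16535669-16610966), mutated in the fatty liver dystrophy mouse, was at 2.94, 3.04, 5.52 and 3.85 in WT-ND, 4.08 and 5.60 in KO-ND, 3.03, 3.22, 4.07 and 1.26 in WT-WD, and 3.84, 2.36 and 2.26 in KO-WD. In deposited RPKM the KO-ND values of *Lpin1* overlapped those of WT-ND and lay just above those of both WD-fed groups, and no other pair of groups was apart.

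As shares of the summed RPKM of the 3 lipins, which need no scaling between libraries, *Lpin2* held 49.4% ± 7.55 (SD, n = 4) in WT-ND, 46.5% ± 5.87 (n = 2) in KO-ND, 46.6% ± 9.52 (n = 4) in WT-WD and 51.5% ± 8.15 (n = 3) in KO-WD. The *Lpin3* share was 44.6% ± 4.80, 42.6% ± 3.90, 47.2% ± 8.09 and 37.1% ± 10.3 in the same order. *Lpin1* held 5.92% ± 2.85, 10.9% ± 1.97, 6.25% ± 2.94 and 11.4% ± 10.3, and its highest share was the 23.1% of KO-WD male 1, where *Lpin2* and *Lpin3* were lowest. The share of *Dgat1* in *Dgat1* plus *Dgat2* was 74.5% ± 6.87, 77.8% ± 5.89, 80.8% ± 4.11 and 81.2% ± 5.09. All of these shares count every transcript, and the order differs over protein-coding transcripts alone. There, the WT-ND mean RPKM was 41.8 for *Dgat1* against 72.85 for *Dgat2*, and 19.3 for *Lpin2* against 23.2 for *Lpin3*. Of the 16 tests of a share between 2 groups (2-sided exact permutation tests of 4 shares in 4 comparisons), 0 had an unadjusted p under 0.05, and the lowest p was 0.171 (Benjamini-Hochberg adjusted p = 0.903), for the 6.35 percentage points by which the *Dgat1* share was higher in WT-WD than in WT-ND. No share was resolved from another group at these sample sizes, and the exact test allows no p under 0.1 for KO-WD against KO-ND.

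The 4 *Lpin1* transcripts in the table were not measured separately. Lpin1-210 stood at 0.490 times Lpin1-202 in 13 of 13 libraries, within 0.3%. Lpin1-209 stood at 1.028 times Lpin1-202 in 10 of 13 libraries, and Lpin1-201 at 0.261 times Lpin1-202 in 8 of 13. In those 8 libraries the level of Lpin1-201 therefore carried no information beyond that of Lpin1-202. In the other 5 (WT-ND female 2, KO-ND male 2, WT-WD males 1 and 2 and KO-WD male 2), the Lpin1-201 ratio ranged from 0.163 to 1.38. In RPKM, Lpin1-201 was at 0.276, 0.285, 0.518 and 1.36 in WT-ND, 0.383 and 1.65 in KO-ND, 0.215, 0.605, 0.382 and 0.118 in WT-WD, and 0.360, 0.465 and 0.212 in KO-WD. Its values in 4 groups overlapped, and it held a median of 9.39% of the *Lpin1* RPKM. On a transcript of 1 kb, 1 read was worth 0.0692 to 0.139 RPKM, and the 2 *Lpin1* transcripts that have an annotated length, of 5581 and 5433 bases, held about 43 to 150 reads a library together. The median over the 13 libraries was 101 such reads for *Lpin1* and 227 for *Gpam*, but 2123 for *Dgat1* and 1683 for *Mogat2*.

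**Figure D2:**
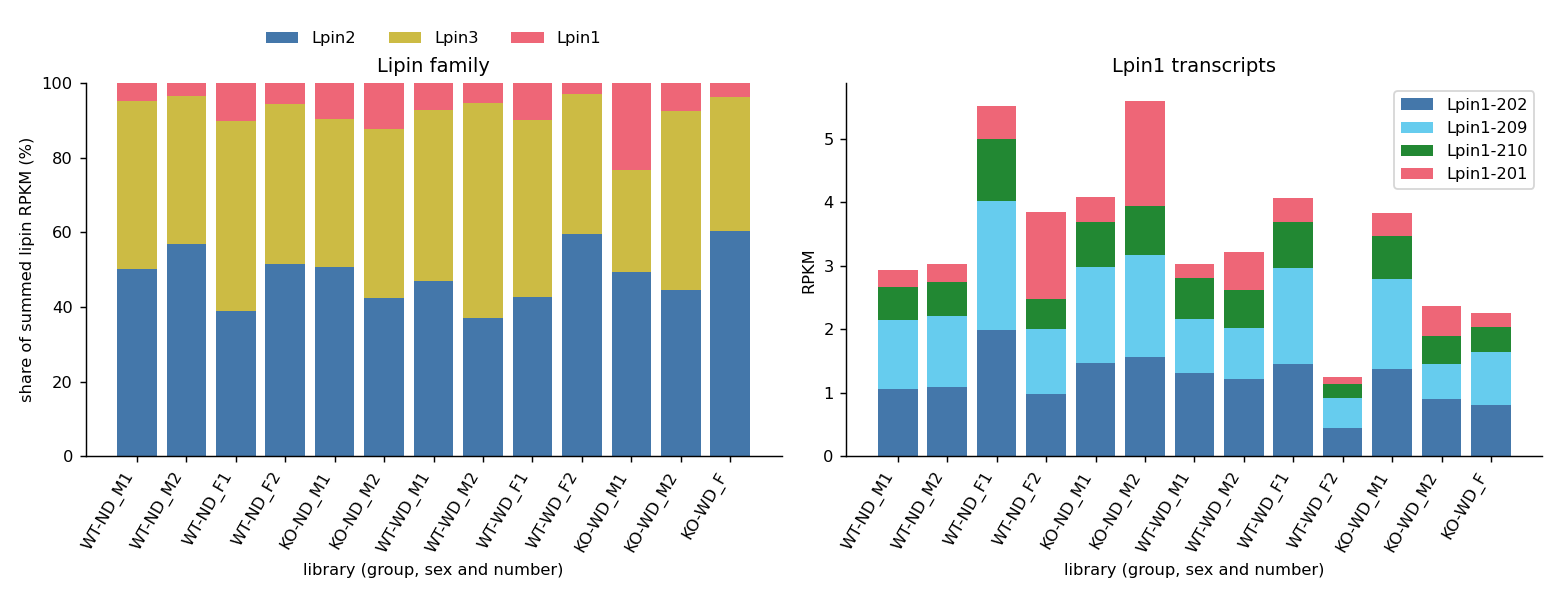
Left, share of each lipin gene in the summed lipin RPKM (y axis, %) by library; right, stacked RPKM of the 4 *Lpin1* transcripts by library. *Lpin1* held 2.77% to 23.1%, highest in KO-WD male 1, and the bars of Lpin1-202, Lpin1-209 and Lpin1-210 keep 1 proportion in 10 of 13 libraries.

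The annotated start sites of Lpin1-201 and Lpin1-202 lie 21196 bases apart on chromosome 12, with 19 of 21 exons shared, so that most reads of 1 are reads of the other. The RefSeq promoter table (build GRCm38.p6) has an entry for *Lpin1* at the start of Lpin1-202, and entries for 7 of the 10 genes in all. The 250 bases before the start are printed below for *Lpin1* and *Gpam*, which ordered the libraries alike, and for *Agpat2* and *Acsl5*, which ordered them the other way, so that the correlations described later can be set beside their sequences. Capitals mark matches on either strand to the letters of the TATA box (TATAAA), the CCAAT box, the GC box (GGGCGG), the E-box (CACGTG) or a binding site unit of nuclear receptors (AGGTCA).
*Lpin1*, chr12:16610967-16611216, minus strand: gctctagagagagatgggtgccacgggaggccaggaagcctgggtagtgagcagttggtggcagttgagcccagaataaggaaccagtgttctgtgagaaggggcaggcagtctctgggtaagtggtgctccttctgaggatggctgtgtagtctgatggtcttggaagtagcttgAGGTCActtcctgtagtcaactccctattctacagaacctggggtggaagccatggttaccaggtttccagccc
*Gpam*, chr19:55127239-55127488, minus strand: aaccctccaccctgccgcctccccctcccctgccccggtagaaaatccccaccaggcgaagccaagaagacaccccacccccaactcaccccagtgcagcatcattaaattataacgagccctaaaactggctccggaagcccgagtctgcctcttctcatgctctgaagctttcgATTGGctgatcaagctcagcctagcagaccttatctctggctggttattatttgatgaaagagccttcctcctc
*Agpat2*, chr2:26604418-26604667, minus strand: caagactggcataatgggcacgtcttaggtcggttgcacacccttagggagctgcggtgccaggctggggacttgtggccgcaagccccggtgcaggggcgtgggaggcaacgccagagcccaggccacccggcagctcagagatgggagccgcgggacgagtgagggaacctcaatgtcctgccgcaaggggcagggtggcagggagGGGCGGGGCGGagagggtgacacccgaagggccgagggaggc
*Acsl5*, chr19:55253119-55253368, plus strand: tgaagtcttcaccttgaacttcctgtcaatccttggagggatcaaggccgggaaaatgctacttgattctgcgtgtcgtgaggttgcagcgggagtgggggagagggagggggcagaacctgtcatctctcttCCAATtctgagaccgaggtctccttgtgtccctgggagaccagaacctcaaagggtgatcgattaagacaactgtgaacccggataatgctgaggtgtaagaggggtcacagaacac

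The *Lpin1* window held 1 nuclear receptor unit, at base -74 counted back from the start. The *Gpam* window held 1 CCAAT box on the opposite strand, also at -74, *Agpat2* held 2 GC boxes, at -42 and -37, that share a base, and *Acsl5* held 1 CCAAT box, at -117. Over all 32841 promoters of the table, 14% held the nuclear receptor unit in their 250 bases, 33.9% the CCAAT box, 32.7% the GC box, 12.4% the TATA box and 6.02% the E-box, so each of these matches is one that many promoters share. No motif was common to the printed *Lpin1* and *Gpam* windows, and the other *Gpam* entry, not printed, held 1 nuclear receptor unit at -196. The GC content was 54.8% in both printed windows, compared with 69.2% for *Agpat2*, 52.8% for *Acsl5* and a median of 52.4% over all promoters.

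The fitted comparisons used libraries scaled to each other and log2(scaled RPKM + 0.5), with limma across all 19042 genes. A gene was called where its adjusted p was below 0.01 and it differed 2-fold or more. Fold changes are on this scale, which understates those of low genes. By their labels the libraries are separate samples, except that the KO-WD female library is a mean of 2 columns and entered the fit as 1 library. The p-values measure the spread between the 13 libraries. Of the 10 genes, 0 were called in any of 7 comparisons, and in these fits 0 had an unadjusted p under 0.05.

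For the WD in WT mice (WT-WD against WT-ND), 0 of 10 genes were called, as against 0.00525% of all genes, and 0 had an unadjusted p under 0.05, as against 15.6% of all genes. The median log2 fold change of the 10 was -0.23 compared with 0.03 over all genes, and 7 of 10 were lower. The furthest were *Dgat2*, at -0.67 (SE 0.47, limma adjusted p = 0.51), and *Pnpla2*, at -0.58 (SE 0.30, 95% interval -1.22 to 0.06, adjusted p = 0.364). Scaled values of WT-WD and WT-ND overlapped for all 10 genes, against 10.6% of all genes whose groups did not overlap. *Lpin1* was at 0.00 (SE 0.25) and *Lpin3* at 0.02 (SE 0.37). The 95% intervals of the 10 genes reached a median of 0.86 to either side, compared with 0.60 over all genes, so smaller differences could not be resolved. With sex in the model, *Pnpla2* had an unadjusted limma p of 0.015 and *Dgat2* one of 0.0362, as 18.9% of all genes were then past 0.05. Without scaling of the libraries the median of all genes was -0.38, and *Agpat2*, *Dgat2* and *Pnpla2* had an unadjusted p under 0.05 (lowest adjusted p 0.021 by limma), as did 32.8% of all genes.

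In *Tas1r3*-/- mice (KO-WD against KO-ND) 0 of 10 were called (0% of all genes), 0 had an unadjusted p under 0.05 (5.65%), the groups overlapped for all 10 (20.9% of all genes were apart), and 9 of 10 were lower, with a median of -0.25 compared with -0.01 over all genes. *Mogat2* was furthest at -0.72 (SE 0.76, limma adjusted p = 0.995), and *Lpin1* was at -0.36 (SE 0.32, adjusted p = 0.981). This contrast sets 2 males against 2 males and a female library, and its values rest on single KO-WD libraries. Without KO-WD male 1 the median of the 10 genes was 0.23, 3 of 10 were lower and *Mogat2* was at 0.20. Without the female library the median was -0.69, *Mogat2* was at -1.53, and the unadjusted p of *Dgat2*, *Mogat2* and *Pnpla2* was under 0.05, which 9.11% of all genes then had.

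For the loss of *Tas1r3* on the ND (KO-ND against WT-ND), 0 of 10 were called (0% of all genes) and 0 were past 0.05 unadjusted (4.83%), with 9 of 10 lower and a median of -0.52 compared with 0.02. The scaled values of the groups did not overlap for 6 of 10 genes, lower in KO-ND for *Mogat2*, *Dgat1*, *Lpin3*, *Agpat2* and *Pnpla2* and higher for *Lpin1*. Among all genes, 22.4% were apart, 13.6% in the lower and 8.83% in the higher direction. The log2 differences of the 5 lower genes were -0.67 (SE 0.72), -0.53 (SE 0.51), -0.49 (SE 0.46), -0.54 (SE 0.49) and -0.59 (SE 0.36), and that of *Lpin1* was 0.47 (SE 0.30). With 2 against 4 libraries the exact permutation test cannot go below 0.0667, the value it gave for *Lpin3*, *Agpat2* and *Pnpla2*, and KO-ND holds males alone while WT-ND holds both sexes. With sex in the model the median of the 10 genes was -0.19, and *Mogat2* was at -0.16, *Dgat1* at -0.24, *Lpin3* at -0.40, *Agpat2* at -0.18, *Pnpla2* at -0.26 and *Lpin1* at 0.49. With KO-ND and WT-ND alone in the fit, 5 of 10 genes (*Mogat2*, *Dgat2*, *Lpin3*, *Agpat2* and *Pnpla2*) had an unadjusted p under 0.05, against 11.9% of all genes.

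On the WD (KO-WD against WT-WD), 0 of 10 were called, as against 0.0105% of all genes, 0 were past 0.05 unadjusted (2.62%), and the groups overlapped for all 10, against 2.88% of all genes whose groups did not. Of the 10 genes, 8 were lower, with a median of -0.49 compared with -0.04. The furthest were *Mogat2*, at -0.93 (SE 0.64, limma adjusted p = 1), and *Lpin3*, at -0.81 (SE 0.40, adjusted p = 1). These values rest on single libraries. Without KO-WD male 1 *Mogat2* was at 0.01, *Dgat1* at 0.07, *Agpat2* at 0.06, *Acsl5* at 0.11 and *Lpin3* at -0.10. Without WT-WD female 2 *Mogat2* was at -0.47, *Dgat1* at -0.18, *Agpat2* at -0.28 and *Acsl5* at -0.18. The median was then -0.18, with 10 of 10 lower. Without the KO-WD female library 6 genes (*Mogat2*, *Dgat1*, *Dgat2*, *Lpin3*, *Agpat2* and *Pnpla2*) had an unadjusted p under 0.05, against 9.95% of all genes. *Lpin1* and *Gpam* were both at 0.11.

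The difference between the diet effects of the 2 genotypes was not resolved for any of the 10 genes (0 called, against 0% of all genes, 0 past 0.05 unadjusted, against 1.43%, and limma adjusted p = 1 for each). It ranged from -0.36 (*Lpin1*, SE 0.40) to 0.37 (*Pnpla2*, SE 0.48), and none exceeded its standard error. Without KO-WD male 1 the median of the 10 genes moved from -0.01 to 0.60, and without the KO-WD female library to -0.47, with 0 genes past 0.05 in either. Averaged over genotypes, the diet difference was negative for 10 of 10 genes, with a median of -0.20 compared with 0.01 over all genes, 0 called (0.00525% of all genes) and 0 past 0.05 unadjusted (17.3%). It was largest for *Mogat2* (-0.59, SE 0.48) and *Dgat2* (-0.55, SE 0.38). Without KO-WD male 1, 6 of 10 were negative with a median of -0.09, and *Mogat2* was at -0.15 and *Dgat2* at -0.39. Averaged over diets, the genotype difference was negative for 8 of 10, with a median of -0.46 compared with -0.01, 0 called (0.00525% of all genes) and 0 past 0.05 unadjusted (7.33%), and ranged from -0.80 (*Mogat2*, SE 0.48, limma adjusted p = 0.723) to 0.29 (*Lpin1*, SE 0.20, adjusted p = 0.747). The lowest unadjusted p of any gene in the 7 comparisons was that of *Lpin3* here (0.0538 by limma, log2 difference -0.65, SE 0.30). Without KO-WD male 1, *Lpin3* was at -0.30 and *Mogat2* at -0.33, and with sex in the model *Mogat2* was at -0.45. Without the KO-WD female library 7 of 10 genes had an unadjusted p under 0.05, against 16.4% of all genes.

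**Figure D3:**
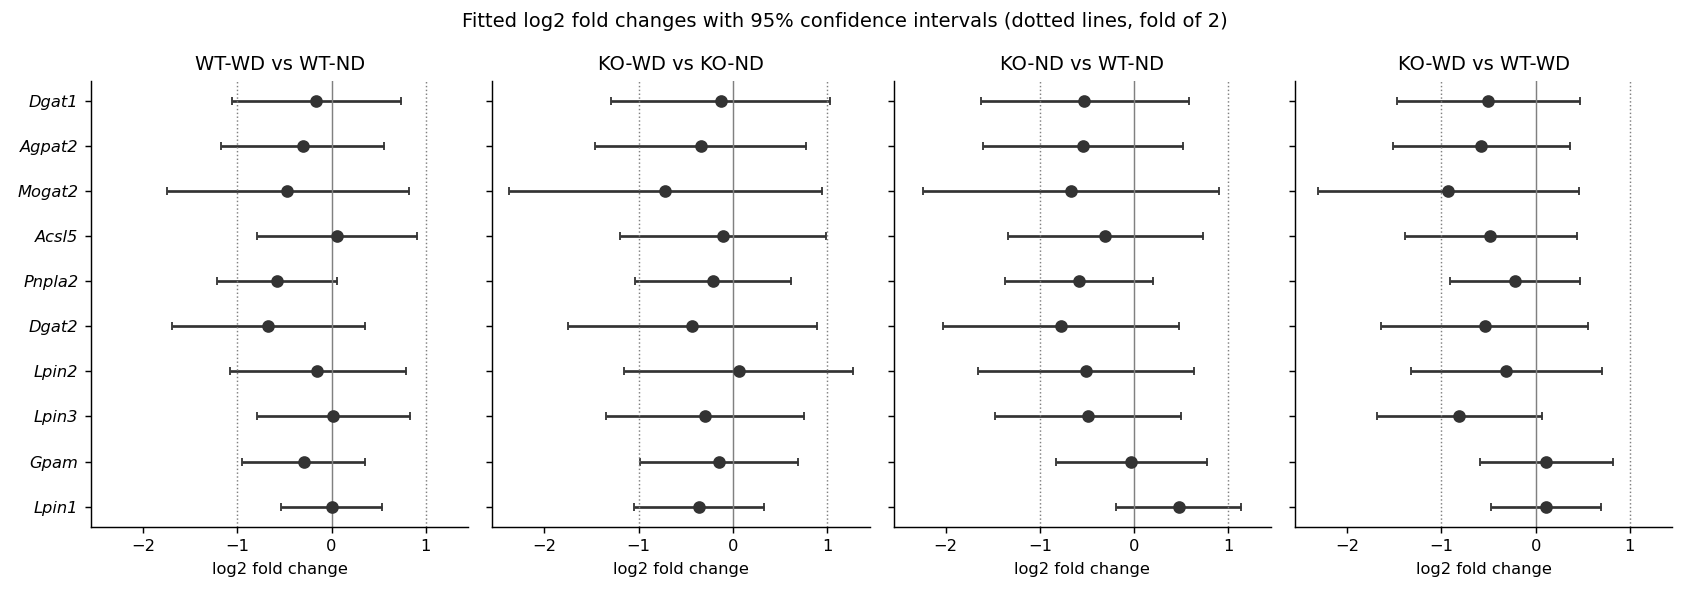
Fitted log2 fold change (x axes) with its 95% confidence interval for the 10 genes in 4 comparisons; dotted lines mark a fold of 2. Every interval includes 0, and most points lie left of it (7, 9, 9 and 8 of 10 genes from left to right).

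Since KO-ND is represented by males, the groups were also compared in the 8 male libraries, 2 per group. In WT males the WD difference was -0.84 (SE 0.26) for *Dgat2* and -0.72 (SE 0.22) for *Pnpla2*, with unadjusted limma p-values of 0.0139 and 0.0135, and these 2 of 10 genes were past 0.05, against 10.6% of all genes that were so and lower. In *Tas1r3*-/- males 4 of 10 were past it and lower, against 9.24% of all genes, with *Mogat2* at -1.55 (SE 0.54), *Dgat2* at -1.15 (SE 0.26), *Dgat1* at -0.76 (SE 0.30) and *Pnpla2* at -0.66 (SE 0.22). Averaged over genotypes, the diet difference in males was past it for 6 of 10 genes (*Mogat2*, *Dgat1*, *Dgat2*, *Lpin2*, *Agpat2* and *Pnpla2*, all lower on the WD), while 16.1% of all genes were past it and lower. *Dgat2*, at -0.99 (SE 0.19), had an adjusted p of 0.0371 by limma, and 5.44% of all genes had an adjusted p under 0.05. On the WD, KO-WD males were lower than WT-WD males past 0.05 in 4 of 10 genes (4.62% of all genes), with *Lpin3* at -1.39 (SE 0.49), *Mogat2* at -1.26 (SE 0.54), *Dgat1* at -0.90 (SE 0.30) and *Dgat2* at -0.75 (SE 0.26). The genotype difference averaged over diets was past 0.05 unadjusted for 6 of 10 genes, all lower in *Tas1r3*-/- males, against 9.61% of all genes, with *Lpin2* at -0.79 (SE 0.24), *Mogat2* at -0.94 (SE 0.38) and *Dgat1* at -0.76 (SE 0.21), and adjusted p-values of 0.204 to 0.3. On the ND 2 of 10 were past it (9.23% of all genes), *Lpin2* at -0.83 (SE 0.33) and *Lpin1* at 0.67 (SE 0.27, unadjusted p = 0.0409 by limma), the one gene of the 10 past it in the higher direction in males. Comparisons with KO-WD males rest on 2 libraries. Of these, male 1 was far below male 2 for *Mogat2* (10.3 against 38.9) and *Lpin3* (4.57 against 15.3), though not for *Dgat2* (18.9 against 16.9). Many of the 10 genes also varied together, as described below, so these counts are not of independent genes.

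Sums of marker genes of the tissue's cell types, given here in deposited RPKM, also differed between libraries. The 8 villus enterocyte markers, among them *Vil1* and *Fabp2*, were all above 0 in all libraries. Their summed RPKM was 5322 and 7541 in the WT-ND males, 3582 and 2370 in the KO-ND males, 2827 and 3124 in the WT-WD males and 499 and 1769 in the KO-WD males, and 6321 and 8016, 3961 and 6223, and 4930 in the WT-ND, WT-WD and KO-WD females. KO-WD male 1, the lowest library of 6 of the 10 genes after scaling, also had the lowest sum of these markers, with *Vil1* at 97.2 compared with 239 to 1098 elsewhere. *Apoa4* and *Lct* of the same list were lowest in other libraries, at 4.38 in KO-ND male 2 and 0.0746 in KO-ND male 1. The 6 smooth muscle markers summed to 4554 in KO-WD male 1 and to 709 in WT-WD female 2. After scaling, which these sums do not have, *Mogat2*, *Dgat1*, *Agpat2* and *Acsl5* were highest in WT-WD female 2, and *Lpin1* and *Gpam* lowest. The largest smooth muscle sum was 4667, in WT-ND female 1, where *Mogat2* was at 126 and the villus enterocyte markers summed to 6321. The 4 ileal enterocyte markers had their lowest sum in KO-WD male 1 (784) but reached 6543 in KO-ND male 2, inside the WT-ND range (4292 to 7917). The 6 leukocyte markers summed to 264 in KO-WD male 1, inside the WT-ND range (148 to 267). In bulk tissue, fewer enterocytes and less RNA per enterocyte cannot be told apart, and the part of the enterocyte marker differences in the values above was not tested. *Lct*, a defining enzyme of more proximal gut, was at most 1.17, and the pancreatic markers *Cpa1* and *Ctrb1* at most 3.94 and 10.3, in WT-ND female 1.

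Correlations over the 13 libraries are given as a description of libraries that also differ in group. *Mogat2*, *Dgat1*, *Agpat2*, *Lpin2*, *Lpin3* and *Acsl5* varied together, with Pearson r of 0.76 to 0.98 between their scaled log2 values in 15 pairs, and of 0.76 to 0.97 once the group means were taken out. *Dgat2* and *Pnpla2* were most alike each other (r = 0.95, and 0.94 within groups), with r of 0.79 to 0.84 to *Mogat2*, *Dgat1* and *Agpat2* and of 0.48 to 0.67 to *Lpin2*, *Lpin3* and *Acsl5*. *Lpin1* and *Gpam* also varied together (r = 0.82, and 0.94 within groups) and ran against the first 6, with r of -0.54 (*Agpat2*) to -0.79 (*Acsl5*) for *Lpin1* and -0.47 to -0.82 for *Gpam*, for the same genes. Among 10903 other genes with a mean RPKM of at least 5, those most like *Mogat2* were *Btnl2* (r = 0.985), *Cideb* (0.982) and *Btnl1* (0.979). *Cideb* encodes a lipid droplet protein that acts in lipoprotein loading, and *Btnl1* a butyrophilin-like protein of the gut epithelium. Those most like *Lpin1* were *Acap3* (0.959), *Nmral1* (0.926) and *Nod1* (0.898), a sensor of bacterial cell wall fragments.

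**Figure D4:**
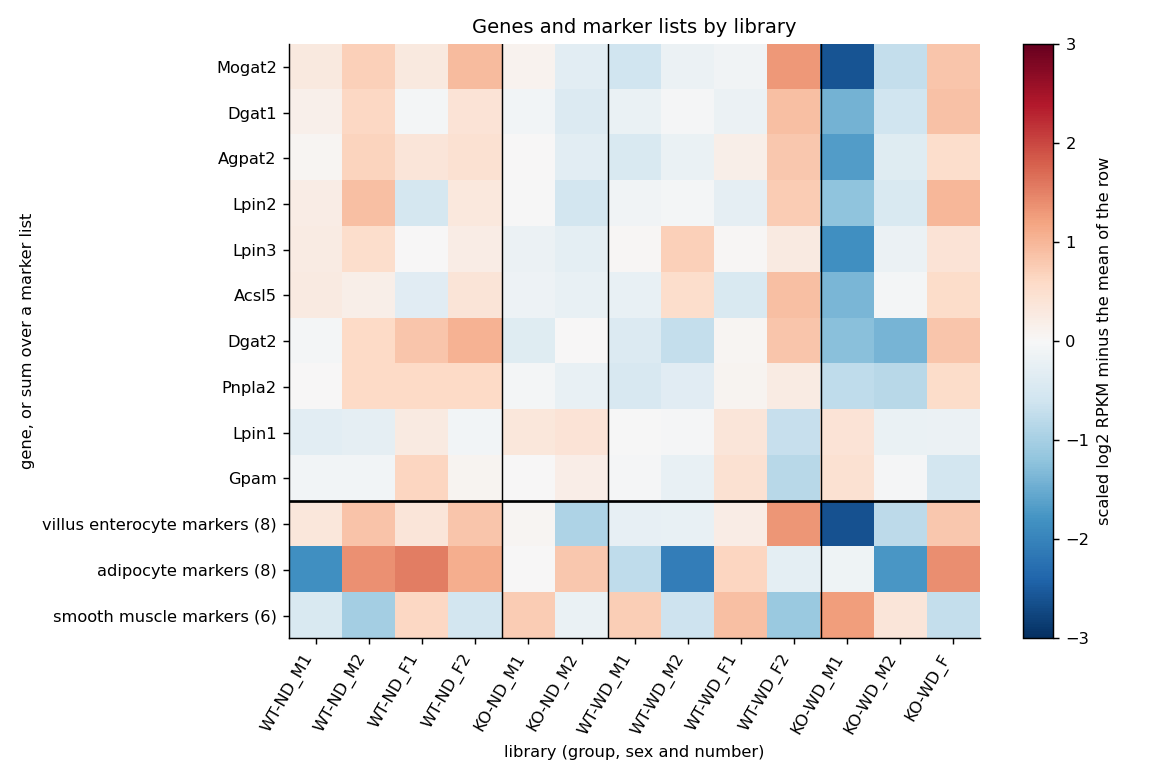
Scaled log2 RPKM of the 10 genes and of 3 summed marker lists, each minus its mean over the 13 libraries (colour), by library. KO-WD male 1 is low for the first 8 genes and for enterocyte markers, and high for *Lpin1*, *Gpam* and smooth muscle markers, and WT-WD female 2 shows the opposite.

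*Dgat2* and *Pnpla2* also had the lowest p-values of the 10 for a difference between the sexes, a comparison chosen after the values had been seen. In a model with group and sex, *Dgat2* was higher in females by 1.17 on the log2 scale (SE 0.24, 95% interval 0.63 to 1.70, limma adjusted p = 0.0551), and every female library was above every male library in each of the 3 groups with both sexes. Among all genes, 4.66% showed that arrangement. *Pnpla2* was higher by 0.66 (SE 0.17, adjusted p = 0.0801), *Mogat2* by 1.04 (SE 0.44, adjusted p = 0.216) and *Agpat2* by 0.71 (SE 0.29, adjusted p = 0.202). These 4 of 10 genes had an unadjusted p under 0.05, all higher in females, against 19.7% of all genes (11.2% higher), and 0 of 10 were called, against 0.042%. *Lpin1* and *Gpam* were at 0.03 (SE 0.22) and -0.05 (SE 0.27). Much of this rests on the KO-WD female library, without which the differences were 0.82 for *Dgat2*, 0.41 for *Pnpla2*, 0.53 for *Mogat2* and 0.41 for *Agpat2*.

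The 8 adipocyte markers, which include *Adipoq* and *Plin1*, were detected in every library. Their summed RPKM was 41.2 and 384 in the WT-ND males and 501 and 344 in the females, 122 and 277 in the KO-ND males, 70.02 and 30.4 in the WT-WD males and 187 and 71.9 in the females, and 99.9 and 32.3 in the KO-WD males and 264 in the female library. *Adipoq* ranged from 0.884 to 46.9, with 1 value of more than 6 digits in that gene and 2 in *Fabp4*. In these sums the female libraries were above the males in KO-WD and, narrowly (71.9 against 70.02), in WT-WD. In WT-WD, *Adipoq*, *Cidec*, *Retn*, *Cfd* and *Car3* also had both females above both males, whereas *Plin1*, *Lep* and *Fabp4* did not. *Plin1* was at 1.805 in WT-WD male 1, against 1.55 and 0.396 in the females. WT-ND male 1 was the lowest of its group in these sums. In deposited RPKM it was also lowest in *Dgat2* and *Pnpla2*, as in *Mogat2*, *Dgat1*, *Agpat2* and *Lpin1*. The part of adipocyte RNA in the *Dgat2* and *Pnpla2* values was not tested.

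**Figure D5:**
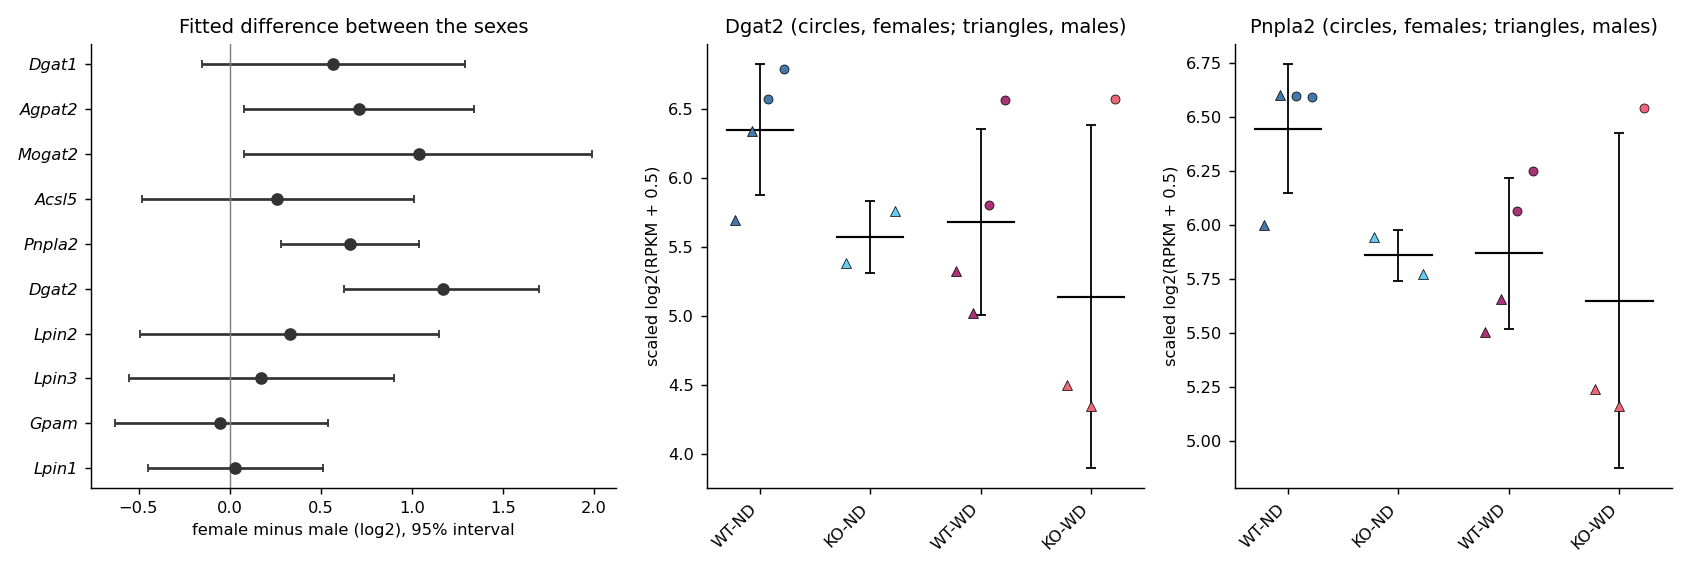
Left, fitted female minus male log2 difference (x axis) with its 95% interval for the 10 genes; middle and right, scaled log2(RPKM + 0.5) of *Dgat2* and *Pnpla2* by group (circles, females; triangles, males; line and bar, mean and SD; the y axes do not start at 0). The *Dgat2* interval runs from 0.63 to 1.70, and no male reaches the females of its group.

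Of 52 further genes in 5 lists around these enzymes, 48 were tested, and 0 were called in any comparison. For the WD in WT mice 11 of 48 had an unadjusted p under 0.05 (9 lower and 2 higher), that is 22.9% against 15.6% of all genes, and in *Tas1r3*-/- mice 2 of 48 did (1 lower and 1 higher), that is 4.17% against 5.65%. Averaged over the other factor, 11 of 48 did for the diet (22.9% against 17.3% of all genes) and 10 of 48 for the genotype (20.8% against 7.33%), and 0 did for the difference between the diet effects. The genotype count includes *Pparg*, *Ppara* and *Mtor*, whose values are described below. In the glycerol phosphate list (12 tested, 3 lower and 1 higher in WT mice), *Gpd1*, which supplies glycerol 3-phosphate, was at -0.90 (SE 0.36), *Agpat1* at -0.62 (SE 0.24), *Agpat4* at -0.53 (SE 0.18) and *Plpp1*, a lipid phosphate phosphatase, at 0.54 (SE 0.23), with limma adjusted p-values of 0.194 to 0.291. *Agpat4* was also at -0.62 (SE 0.23) in *Tas1r3*-/- mice. In the list of monoacylglycerol and lipolysis genes (8 tested, 2 lower and 1 higher in WT mice), *Pnpla3* was at -2.12 (SE 0.58, adjusted p = 0.133), and at -1.01 in males alone, *Lipe*, hormone-sensitive lipase, at -0.98 (SE 0.45, adjusted p = 0.317) and *Pnpla8* at 0.58 (SE 0.17, adjusted p = 0.157). The RPKM of *Pnpla3* was low, at most 0.302 in WT-WD. It was 0.166 in WT-ND male 1 against 3.56 to 7.25 in the other WT-ND libraries. Of the uptake and activation genes (11 tested), *Acsl1* alone was past 0.05 in WT mice, at -0.54 (SE 0.22), but at -0.31 and no longer past 0.05 without its transcript that has a value of more than 6 digits, and of 8 lipid droplet genes 0 were in any comparison (median -0.21 on the WD in WT mice, compared with 0.03 over all genes).

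Between genotypes, 6 of 48 list genes on the ND (4 lower and 2 higher, against 4.83% of all genes) and 5 of 48 on the WD (3 lower and 2 higher, against 2.62%) had an unadjusted p under 0.05. Both counts include *Pparg*, *Ppara* and *Mtor*, whose values are described below, so they are not read as an excess in the lists. On the ND the others were *Lclat1* at -0.58 (SE 0.26), *Agpat3* at -0.47 (SE 0.21) and *Lipa*, lysosomal acid lipase, at -0.87 (SE 0.35), each with a limma adjusted p of 0.891. On the WD, *Fabp2*, the intestinal fatty acid binding protein and also one of the enterocyte markers, was at -2.31 (SE 0.69, adjusted p = 1), and *Pnpla8* at -0.46 (SE 0.19, adjusted p = 1).

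Among genes that control lipins or act with them (9 tested), *Pparg* was at 1.76 (SE 0.43) on the ND and 2.08 (SE 0.38, limma adjusted p = 0.239) on the WD, *Ppara* at 0.97 (SE 0.41) and 1.70 (SE 0.36, adjusted p = 0.516), and *Mtor* at -0.58 (SE 0.20) and -0.80 (SE 0.17, adjusted p = 0.519) in *Tas1r3*-/- against WT mice. These 3 genes carry values of more than 6 digits (3 in *Pparg*, 2 in *Ppara*, 2 in *Mtor*) and are among the genes that depart from the weighted means in the female KO-ND columns. Without such transcripts the WD values were 1.45 for *Ppara* and -0.69 for *Mtor*, and no transcript of *Pparg* was left, since 3 of 3 carry such a value. On the WD in WT mice, *Pparg* was at -0.83 (SE 0.35), *Srebf1*, a regulator of lipid synthesis genes, at -0.62 (SE 0.27), though at -0.11 in males alone, and *Mlst8* at -0.37 (SE 0.17), and in *Tas1r3*-/- mice *Cnep1r1*, a subunit of the lipin phosphatase complex, was at 0.61 (SE 0.24).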

How the data were processed

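Ileal RNA-seq of 16 labelled samples was used as deposited. Per the study's methods, the authors mapped Ion Proton reads to GRCm38 (mm10) with STAR in Partek Flow and quantified Ensembl release 91 transcripts. The deposited values are RPKM per transcript, a unit named in the study's supplement. In genes with 1 transcript, 75.7% to 79.1% of values below 200 reads were whole multiples of 1 read within 0.02 reads. This gave the implied reads, for which the first KO-WD female column was used alone. Gene values are sums over transcripts. A TMM-type factor (30% of log ratios and 5% of levels trimmed) scaled the libraries, and limma 3.58.1 (R 4.3.3) was run on genes reaching 1 RPKM in 2 or more of 13 libraries (4 groups in 1 model, mean-variance trend, pseudocount 0.5, Benjamini-Hochberg adjustment over 19042 genes). Shares were compared with exact permutation tests. The fit was tested on simulated data. Members of the gene set and all lists were chosen with earlier results of these data known. All 10 genes are named. List genes are named where the unadjusted p was under 0.05, at most 4 a list and comparison, largest change first (in the averaged comparisons, by count alone). The sex comparison and protein-coding transcripts alone were chosen after the values were seen. Alternatives are other scalings, pseudocounts, filters, sexes, a replicate block, transcript choices and each library left out. Labels give the groups but do not name cages or batches.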

Additional observations from a re-analysis of the deposited data

Results flagged for a closer look

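In groups of 4 libraries, a library far from the other 3 by Dixon's criterion (ratio above 0.829) was found in 2 of 28 groups of values examined, and chance flags about 1 in 20. *Lpin3* in WT-WD male 2 was at an RPKM of 34.4, compared with 17.1 to 19.8 in the other WT-WD libraries (ratio 0.845). *Agpat2* in WT-ND male 1 was at 184, below the 262 to 278 of the others (ratio 0.833).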

How the results depend on the processing

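The count of called genes among the 10 was 0 in each of the 7 comparisons under the alternatives run, that is RLE, upper quartile and no scaling, pseudocounts of 0.1 and 1, no filter, sex as a covariate, the compared groups alone, males alone, all 16 columns, other transcript choices, each library left out (0 to 0) and thresholds of 0.05. The shares gave 0 passing tests. With the replicate block the counts were also 0. Deviations of same-numbered libraries correlated at -0.20 to 0.57 in 16 pairs. In groups this small, these correlations cannot settle whether the numbers pair the libraries. Under the block *Dgat2* and *Pnpla2*, 2 of 10, had an unadjusted limma p under 0.05 for the averaged diet difference, against 21.95% of all genes. For the sexes, 4 genes passed at an unadjusted p under 0.05.

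Of 2154 refits of 83 printed single-gene differences, 41 changed sign. In KO-WD against WT-WD with libraries left out, *Mogat2* ranged from -1.72 to 0.01, *Dgat1* from -1.09 to 0.07, *Agpat2* from -1.05 to 0.06 and *Acsl5* from -0.85 to 0.11, and in KO-WD against KO-ND *Mogat2* ranged from -1.53 to 0.20. Each lowest value was without the KO-WD female library and each highest without KO-WD male 1. In KO-WD against WT-WD, *Lpin1* ranged from -0.04 to 0.26 and *Gpam* from -0.10 to 0.41, and *Gpam* was at -0.01 under the replicate block and -0.02 with all 16 columns. The *Pnpla2* difference between diet effects ranged from -0.04 to 0.66. The other changes of sign were values near 0 for the WD in WT mice. *Lpin1* ranged from -0.15 to 0.17 with libraries left out, and was at -0.40 without scaling, -0.02 with no filter, -0.00 with a pseudocount of 0.1 or all 16 columns, and -0.04 without transcripts of more than 6 digits or with its matched protein-coding transcripts alone. *Lpin3* ranged from -0.13 to 0.11, and was at -0.45 without scaling, -0.01 with no filter or in males, -0.03 without such transcripts, -0.14 for the top transcript and -0.41 with protein-coding transcripts alone. The causes were not tested. Reads were few for *Lpin1* (43 to 150, on 2 of its 4 transcripts) and *Gpam* (91 to 420).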
